A study of Mus musculus with 28 samples.

Results

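The 10 genes described here encode transcription factors and a coactivator that hold B cell and germinal center identity, and were chosen by name from the 23382 gene symbols of the deposited tables: Pax5, Ebf1, Mef2b, Mef2c, Spib, Pou2af1, Pou2f2, Irf8, Foxo1 and Foxp1. Their expression was read in CPM, read counts scaled to 1 fixed total per library. The data are 28 RNA-seq libraries made from germinal center B cells of mice, which fall into 6 genotype groups. Every group carried Cg1Cre(+/-), a heterozygous Cre recombinase allele at the Cγ1 heavy-chain locus that is active in B cells responding to antigen, so the controls carried Cre as well. Heterozygous Tbl1xr1(D370Y/WT) cells (D370Y, 5 libraries), with a point mutation in Tbl1xr1, were compared with Tbl1xr1(WT/WT) cells (WT, 3 libraries). Cells with the ImuBCL6 allele, in which an immunoglobulin heavy-chain promoter drives Bcl6, were Tbl1xr1(D370Y/WT) (ImuBcl6 D370Y, 5 libraries) or Tbl1xr1(WT/WT) (ImuBcl6, 5 libraries). Cells labelled Tbl1xr1(KO/KO) (KO, 5 libraries) had their own Cre control group with the genotype label of WT (5 libraries). Strain, age, immunisation, sorting gate and the deleted stretch of Tbl1xr1 are not given in the sources used here. Nor do the labels say which animal gave which library, so p-values measure the spread between these libraries, which may be technical in part.

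A B cell keeps its identity through a small network of such factors. PAX5 and EBF1 open and activate the genes of the lineage and shut off those of other lineages. SPIB, IRF8, the octamer factor encoded by Pou2f2 with its coactivator encoded by Pou2af1, and the MEF2 proteins act on shared enhancers in mature and germinal center cells, FOXO1 is needed for the dark zone, where germinal center cells divide, and FOXP1 is abundant in naive B cells. TBL1XR1 belongs to the SMRT/NCOR corepressor complex, which BCL6, the leading repressor of the germinal center, uses to silence its targets.

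The libraries held 19022495 to 37700121 reads on listed genes, and 3 reads corresponded to 0.0640 to 0.133 CPM. The B cell markers Cd79a, Cd79b and Ms4a1 were at 654 to 2820 CPM in every library, and the germinal center marker S1pr2 at 344 CPM or more. KO replicate 3 stood apart: listed genes made up 64.4% of its CPM denominator, against 78.7% to 84.6% in the other libraries. Its values are therefore given apart where the result of a factor rests on it, and for some marker sums. Xist was expressed in all 5 D370Y and all 5 ImuBcl6 libraries, whereas all 5 ImuBcl6 D370Y and all 3 WT libraries expressed Y-linked genes. In both D370Y comparisons, and in ImuBcl6 against WT, genotype and sex thus cannot be told apart. The Y-linked pattern was found in 3 of 5 KO and 1 of 5 Cre control libraries. Tbl1xr1 itself averaged 102 ± 15.4 CPM in libraries labelled KO and 86.0 ± 5.82 CPM in Cre controls (SD, n = 5 each; log2 fold change 0.23 ± 0.11 SE, limma adjusted p = 0.527). Of the KO libraries, replicate 3 held 127 CPM of Tbl1xr1 and the others 89.7 to 105 CPM. KO libraries were therefore not below their controls for the targeted gene. As the deleted stretch is not given, whole-gene CPM cannot check the KO label. Libraries of KO and Cre control were made with a stranded TruSeq kit per the labels' protocols, while no kit is named for the other groups, so levels are set side by side across these 2 sets but not tested.

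All 10 factors were strongly expressed, each at percentile 83.5 or higher among listed symbols by mean CPM. Per kilobase of annotated exon, which allows genes to be compared, Pou2af1 led with 814 CPM per kb. This gene (chromosome 9, 51213708 to 51240080, plus strand, mm10) encodes OCA-B, the coactivator that octamer factors recruit. Spib, an ETS-family factor (chromosome 7, 44525993 to 44532071, minus strand), followed with 330 CPM per kb. Mef2b (chromosome 8, 70139711 to 70167488, plus strand), a MADS-box factor known in human germinal center B cells to activate BCL6, had 187 CPM per kb. Irf8 (chromosome 8, 120736358 to 120756694, plus strand), an interferon regulatory factor that pairs with ETS proteins, had 117 CPM per kb. The other factors were lower. Mef2c (chromosome 13, 83504034 to 83667080, plus strand) and Foxo1 (chromosome 3, 52268336 to 52353221, plus strand) both had 23.4 CPM per kb. Pou2f2, which encodes the octamer factor OCT2 (chromosome 7, 25087344 to 25179726, minus strand), had 20.8 CPM per kb. Pax5 (chromosome 4, 44524757 to 44710487, minus strand) had 15.6, Foxp1 (chromosome 6, 98925338 to 99522721, minus strand) 12.8 and Ebf1 (chromosome 11, 44617317 to 45008091, plus strand) 5.38 CPM per kb.

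Across the 6 groups the highest group mean was 1.29 times the lowest for Pou2af1, 1.33 times for Pou2f2, 1.35 times for Irf8, 1.41 times for Foxo1 and 1.45 times for Pax5. The ratio was 1.64 for Spib, 1.66 for Foxp1, 1.68 for Mef2b and 1.72 for Ebf1. Mef2c had the widest range, at 3.10 times: its mean CPM was 536 in D370Y, 532 in WT, 390.4 in ImuBcl6, 383 in ImuBcl6 D370Y, 195 in KO and 173 in Cre control cells. WT and Cre control cells share a genotype label but come from the 2 separate sets of libraries, and their ranges did not overlap for 7 of 10 factors. How many of all genes had separate ranges was not counted, here or for the ordered pairs that follow. Neither count is thus read as a trait of the factors. Ebf1 had 65.2 to 71.8 CPM in WT and 39.1 to 41.4 CPM in Cre control libraries, and Foxp1 199.8 to 221 and 123 to 134 CPM in the same groups. Pax5, Mef2c and Foxo1 were likewise separate with WT above, and Spib and Irf8 with Cre control above, while Mef2b, Pou2af1 and Pou2f2 overlapped. Between groups next to each other when ordered by their mean, which are the closest by construction, 5 of 50 pairs of ranges were separate: ImuBcl6 below WT for Ebf1 and for Mef2c, KO below ImuBcl6 D370Y for Mef2c, and ImuBcl6 D370Y below ImuBcl6 for Spib and for Foxo1.

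**Figure D1:**
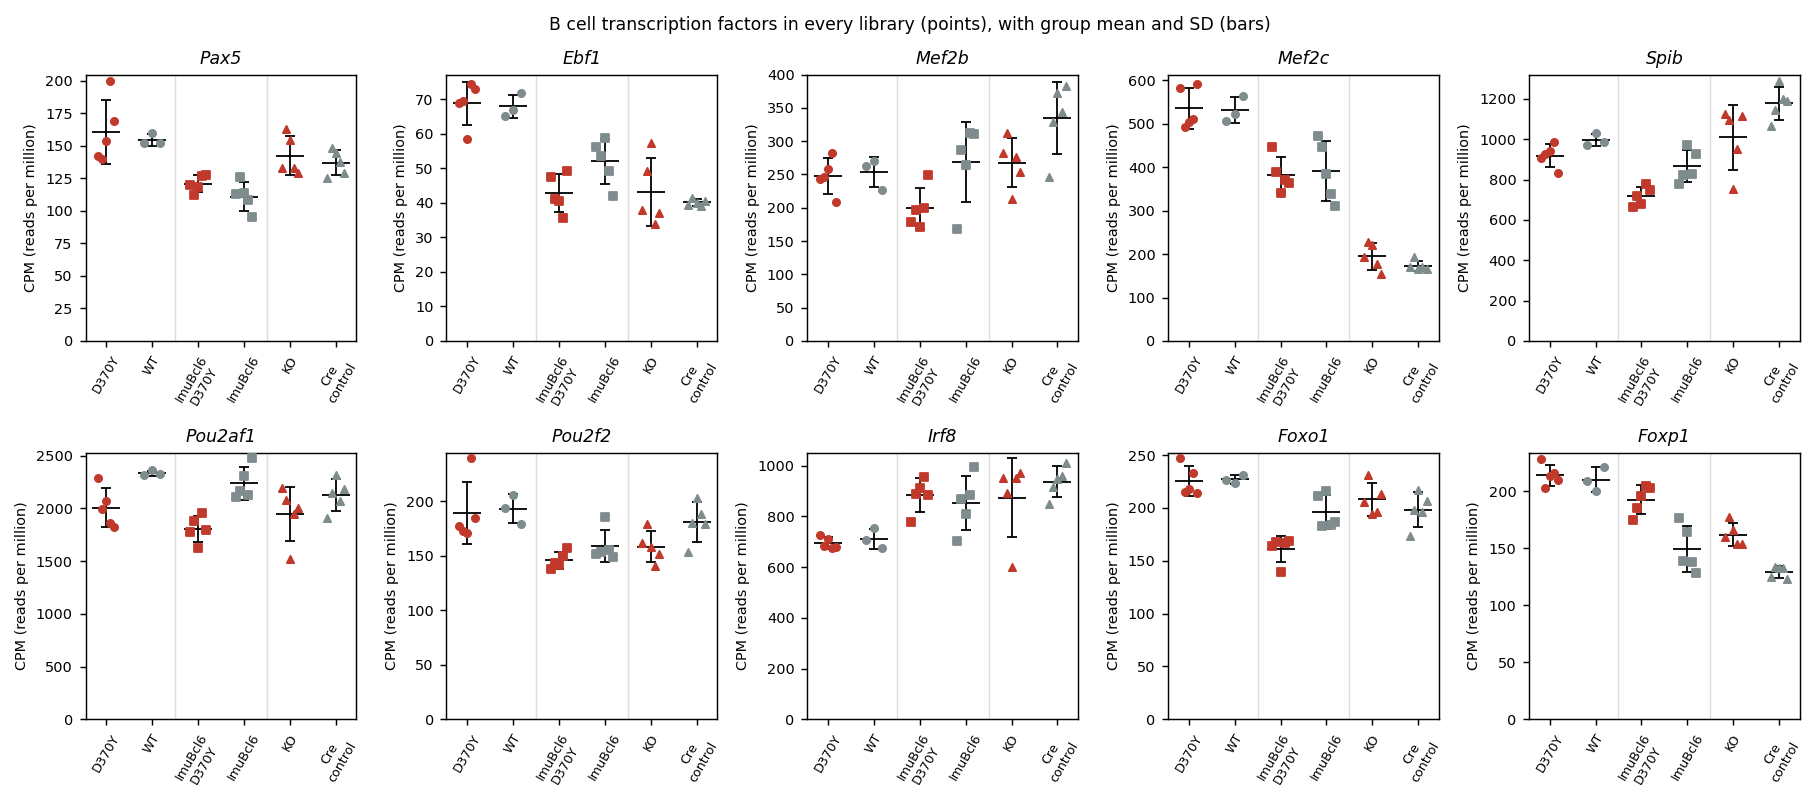
CPM of each of the 10 factors (vertical axes from 0) in the 28 libraries; points are libraries, long ticks group means and bars ± SD, with the Tbl1xr1 mutant group of each pair in red left of its control in grey. Pou2af1, Spib and Foxo1 libraries of ImuBcl6 D370Y lie below all ImuBcl6 libraries, and Foxp1 in KO lies above all Cre controls.

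In cells without ImuBcl6, the D370Y allele left all 10 factors without a call. Pou2af1 and Spib had the largest estimates, both negative, and the estimates for the other 8 lay within 0.05 of 0 on the log2 scale. The share of all genes tested that was called was 3.55% (2.6% higher, 0.943% lower), and 0 of 10 factors were called by limma, edgeR and DESeq2. At an unadjusted p below 0.05 limma had 1, Pou2af1. No share of all genes is given at that level, here or below, so such counts are not read as a result. Pou2af1 had 2288, 1992, 2065, 1857 and 1821 CPM in D370Y libraries, against 2314, 2361 and 2324 CPM in WT libraries. Each D370Y library was thus below the lowest WT library, by a narrow gap for D370Y replicate 1. The log2 fold change was -0.22 ± 0.08 SE, limma adjusted p = 0.146 (95% interval -0.39 to -0.05). For Spib the 5 D370Y libraries held 832 to 986 CPM and the 3 WT libraries 972 to 1031 CPM, which overlap (log2 fold change -0.12 ± 0.07 SE, limma adjusted p = 0.38). In bulk RNA fewer cells of a type and less RNA per cell cannot be told apart, here or below.

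The lineage factors Pax5 and Ebf1 were close to equal in D370Y and WT cells. Pax5 averaged 161 ± 24.6 CPM in D370Y (SD, n = 5) and 155 ± 4.51 CPM in WT cells (SD, n = 3), and Ebf1 68.9 ± 6.24 and 68.0 ± 3.43 CPM in the same groups. Their log2 fold changes of 0.04 ± 0.10 and 0.02 ± 0.08 SE had 95% intervals of -0.18 to 0.27 and -0.16 to 0.19. The 10 factors' median log2 fold change was -0.02, as was that of all genes tested. D370Y replicate 4 had the highest Pax5 (199 CPM), Ebf1 (74.4 CPM) and Pou2f2 (239 CPM) of its group. For Irf8, Foxo1, Foxp1, Mef2b and Mef2c the D370Y and WT libraries overlapped as well.

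On the ImuBcl6 background D370Y cells had less Pou2af1, Spib and Foxo1 and more Foxp1, with changes of 0.27 to 0.37 in size on the log2 scale. Of the 10 factors 1 rose and 3 fell, beside 8.18% of all genes called (2.8% higher and 5.38% lower). Over all genes called 34.24% were higher, and 45.28% with DESeq2 on the recovered reads, where 624 were higher and 754 lower instead of 302 and 580. The median log2 fold change of the 10 factors was -0.19 and that of all genes -0.01.

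Pou2af1 had 1777, 1880.3, 1620.5, 1955 and 1794 CPM in ImuBcl6 D370Y libraries, against 2106, 2166, 2308, 2127 and 2478 CPM in ImuBcl6 libraries. The highest mutant library lay below the lowest control. The log2 fold change was -0.31 ± 0.06 SE, limma adjusted p = 0.0103, and Pou2af1 was called in all 17 alternatives tried, at adjusted p values of 0.000501 to 0.0358. Its octamer partner Pou2f2 averaged 146 ± 7.66 CPM in ImuBcl6 D370Y and 159 ± 14.9 CPM in ImuBcl6 cells (SD, n = 5 each), and was not called (-0.12 ± 0.07 SE, limma adjusted p = 0.288).

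Spib had 666, 718, 680.4, 777 and 748 CPM in ImuBcl6 D370Y libraries, against 779, 825, 970.1, 827 and 925 CPM in ImuBcl6 libraries. The groups did not overlap, but the highest mutant and the lowest control library were almost equal. Spib fell with a log2 fold change of -0.27 ± 0.07 SE, limma adjusted p = 0.0303. That call was lost without ImuBcl6 D370Y replicate 1 (adjusted p = 0.0675), 2 (0.0646) or 3 (0.0805), without ImuBcl6 replicate 3 (0.0881) or 5 (0.0578), without the low-value filter (0.0544) and with all 28 libraries in 1 limma fit (0.0666), at log2 fold changes of -0.30 to -0.22 over its 17 alternatives.

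Foxo1 had 164, 167, 139.6, 167 and 169 CPM in ImuBcl6 D370Y libraries, against 211, 183, 216, 184 and 187 CPM in ImuBcl6 libraries. The groups did not overlap, and ImuBcl6 D370Y replicate 3 was the lowest of all. Its log2 fold change was -0.28 ± 0.07 SE, limma adjusted p = 0.0276. Without ImuBcl6 D370Y replicate 3 it was -0.23 (limma adjusted p = 0.0662), without ImuBcl6 replicate 3 it was -0.25 (0.0844), and without the low-value filter the adjusted p was 0.0504. FOXO1 is held in the cytoplasm when PI3K signalling is active, which RNA levels do not measure.

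Foxp1 moved the other way. It had 174, 186, 196, 204 and 203 CPM in ImuBcl6 D370Y libraries, against 177, 139, 165, 138 and 129 CPM in ImuBcl6 libraries. The groups overlapped only through ImuBcl6 replicate 1, which was the highest control and just above the lowest mutant. The log2 fold change was 0.37 ± 0.09 SE, limma adjusted p = 0.0182, and Foxp1 was called in all 17 alternatives, at 0.32 to 0.44 and adjusted p values of 0.0015 to 0.0473.

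Among the factors without a call, Mef2b had 178, 196, 171, 199.5 and 249 CPM in ImuBcl6 D370Y libraries, against 168, 287, 264, 313 and 311 CPM in ImuBcl6 libraries. ImuBcl6 replicate 1 was the lowest of all 10 libraries and far below the other 4 controls. The log2 fold change was -0.41 ± 0.16 SE, limma adjusted p = 0.13; without ImuBcl6 replicate 1 it was -0.57 (limma adjusted p = 0.0046), and DESeq2 gave -0.42 (adjusted p = 0.0433). Ebf1 averaged 42.8 ± 5.54 CPM in ImuBcl6 D370Y and 52.0 ± 6.56 CPM in ImuBcl6 cells (SD, n = 5 each), with a log2 fold change of -0.28 ± 0.10 SE, limma adjusted p = 0.117, and -0.35 (0.0402) without ImuBcl6 replicate 5. Pax5 (0.13 ± 0.07 SE, 95% interval -0.03 to 0.28), Irf8 (0.06 ± 0.08, -0.12 to 0.24) and Mef2c (-0.02 ± 0.11, -0.26 to 0.23) were not called, and their libraries overlapped.

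**Figure D2:**
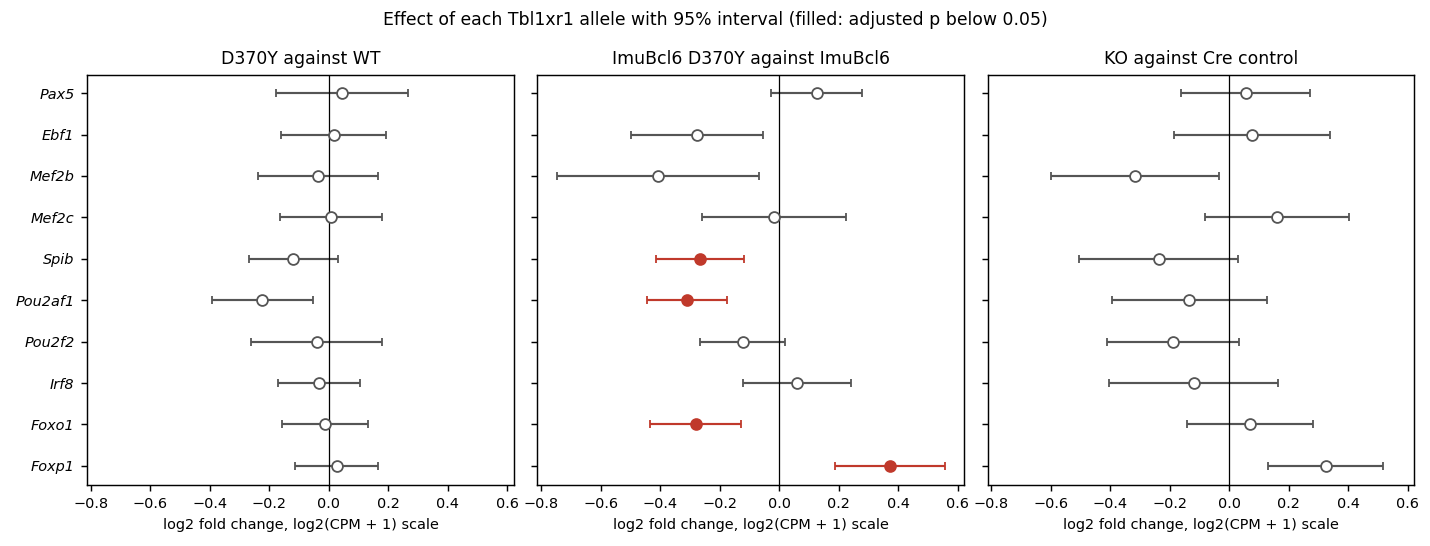
Log2 fold change of each factor (horizontal axis, log2(CPM + 1) scale) for the 3 allele comparisons; points are limma estimates, bars 95% intervals, and filled points have an adjusted p below 0.05. The 4 filled points are Spib, Pou2af1, Foxo1 and Foxp1 on the ImuBcl6 background.

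Because Pou2af1, Spib and Foxo1 fell together and Mef2b was the uncalled factor with the largest negative estimate beside them, their promoters are shown, from 250 bases before to 50 after the RefSeq start site (RefSeq, GRCm38.p6, 5′ to 3′ on the gene's strand). Capitals mark an octamer (ATGCAAAT), which POU2F2 binds, or an EBF1-type palindrome (TCCC and GGGA with 2 free bases between). They are, in this order, chr9:51213440-51213739 (plus strand), chr7:44532022-44532321 (minus strand), chr3:52268087-52268386 (plus strand) and chr8:70152511-70152810 (plus strand).
Pou2af1: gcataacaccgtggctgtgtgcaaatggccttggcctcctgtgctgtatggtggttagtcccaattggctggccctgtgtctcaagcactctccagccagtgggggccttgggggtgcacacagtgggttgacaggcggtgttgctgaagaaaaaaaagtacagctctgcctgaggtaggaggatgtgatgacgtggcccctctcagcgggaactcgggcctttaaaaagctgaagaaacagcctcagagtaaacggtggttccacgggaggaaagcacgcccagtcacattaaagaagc
Spib: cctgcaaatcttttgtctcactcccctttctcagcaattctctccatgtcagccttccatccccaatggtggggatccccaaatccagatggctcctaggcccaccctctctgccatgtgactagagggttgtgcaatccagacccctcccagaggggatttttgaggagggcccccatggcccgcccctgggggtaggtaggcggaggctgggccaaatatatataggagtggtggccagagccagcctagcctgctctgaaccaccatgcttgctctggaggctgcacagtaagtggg
Foxo1: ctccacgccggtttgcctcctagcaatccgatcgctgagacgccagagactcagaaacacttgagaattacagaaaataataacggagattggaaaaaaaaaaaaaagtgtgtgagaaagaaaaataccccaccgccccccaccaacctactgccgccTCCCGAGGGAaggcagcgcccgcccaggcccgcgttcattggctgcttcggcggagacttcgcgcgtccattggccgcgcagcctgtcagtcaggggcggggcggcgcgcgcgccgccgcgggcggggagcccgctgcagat
Mef2b: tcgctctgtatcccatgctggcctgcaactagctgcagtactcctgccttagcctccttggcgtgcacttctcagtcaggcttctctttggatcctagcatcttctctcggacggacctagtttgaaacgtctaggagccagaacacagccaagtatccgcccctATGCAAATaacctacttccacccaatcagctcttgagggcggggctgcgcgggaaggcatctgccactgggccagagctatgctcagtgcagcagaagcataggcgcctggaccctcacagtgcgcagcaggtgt
Both strands were searched for these and for a forkhead (TGTTTAC), an ETS-IRF composite (GGAA and GAAA with 2 free bases between), a MEF2 (CTA and TAG with 4 between) and a BCL6-type (TTCNNNGAA) motif. The Mef2b window held the octamer, starting 85 bases before the start site, as do 1.74% of 32851 promoters, and the Foxo1 window held the EBF1-type palindrome 92 bases before, as do 0.904%. The windows of Pou2af1 and Spib held none of the 6. Among the other factors the Pou2f2 window held the ETS-IRF composite (2.72% of promoters) and the first start of Mef2c and of Irf8 the BCL6-type motif (8.3%), at 2 places in Irf8. A match is a description of the letters and not a bound site.

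In cells labelled KO, 0 of 10 factors passed the test, beside 1.39% of all genes called (0.476% higher, 0.913% lower), although every KO library had more Foxp1 than any Cre control library. At an unadjusted p below 0.05 there were 2, Foxp1 and Mef2b, a count with no share of all genes beside it. With edgeR and DESeq2 1 factor each was called, Foxp1. Foxp1 had 159.6, 177, 166, 154 and 154 CPM in KO libraries, against 124, 134, 132, 132 and 123 CPM in Cre controls. All KO libraries lay above all controls, and KO replicate 3 was within the range of the other KO libraries. The estimate was 0.32 ± 0.09 SE, limma adjusted p = 0.109 (95% interval 0.13 to 0.52). It was called with TMM scaling (0.38, limma adjusted p = 0.0238), by edgeR (0.41, 0.0324), by DESeq2 (0.41, 0.00093), with all 28 libraries in the limma fit (0.32, 0.0124) and without KO replicate 3 (0.32, 0.00509). It was not called with sex as a term (0.35, 0.0975) or when any other library was left out (0.29 to 0.34, limma adjusted p of 0.18 to 0.322). Without KO replicate 3 the number of all genes called by limma was 449 (233 higher, 216 lower), against 146 with it (50 higher, 96 lower); with it, TMM scaling gave 98 higher and 118 lower.

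Mef2b had 283, 312, 213, 276 and 254 CPM in KO libraries, against 246, 329, 372, 345 and 382 CPM in Cre controls. KO replicate 3 was the lowest, and Cre control replicate 1 lay among the KO libraries. The log2 fold change was -0.32 ± 0.13 SE, limma adjusted p = 0.432, and -0.24 (0.303) without KO replicate 3. For Spib the values were 1127, 1098, 752, 954 and 1114 CPM in KO and 1068, 1146, 1289.9, 1199.6 and 1189 CPM in Cre control libraries, with KO replicate 3 far below the rest. The Spib log2 fold change of -0.24 ± 0.13 SE, limma adjusted p = 0.649 was -0.14 (0.283) without that library.

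KO replicate 3 was also the lowest of its group for Irf8 (599 CPM against 892 to 973 CPM in the other 4) and for Pou2af1 (1517 CPM against 1949 to 2189.6 CPM). Irf8 had a log2 fold change of -0.12 ± 0.13 SE, limma adjusted p = 0.888, and 0.01 without that library. The Pou2af1 estimate of -0.13 ± 0.12 SE, limma adjusted p = 0.866 was -0.05 (0.722) without it. Pou2f2 (-0.19 ± 0.11 SE), Foxo1 (0.07 ± 0.10), Pax5 (0.05 ± 0.10), Ebf1 (0.08 ± 0.13) and Mef2c (0.16 ± 0.12) were not called, and KO and Cre control libraries overlapped. Ebf1 was more variable in KO, at 33.9 to 57.4 CPM, than in Cre controls, at 39.1 to 41.4 CPM, a difference in spread that was not tested. The 57.4 CPM were those of KO replicate 3, and the other KO libraries held 33.9 to 49.4 CPM. Without KO replicate 3 the Ebf1 log2 fold change was -0.03 (limma adjusted p = 0.887).

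Averaged over both backgrounds, the D370Y effect was negative for Pou2af1 and Spib and positive for Foxp1. For Foxp1 the 2 averaged estimates were 0.37 with ImuBcl6 and 0.03 without it. In 1 fit of the 4 groups, 3 of 10 factors were called, 1 higher and 2 lower, beside 12.5% of all genes (6.23% higher, 6.28% lower). The averaged log2 fold change was -0.27 ± 0.05 SE, limma adjusted p = 0.00159 for Pou2af1, -0.19 ± 0.05 SE, limma adjusted p = 0.0132 for Spib and 0.20 ± 0.06 SE, limma adjusted p = 0.0256 for Foxp1. Sex ran in opposite directions in the 2 pairs that are averaged here. Foxo1 was not called (-0.15 ± 0.05 SE, limma adjusted p = 0.0571), but was without D370Y replicate 1 (0.0355) or 4 (0.0498) or ImuBcl6 replicate 2 (0.0483) or 4 (0.0494). Mef2b (-0.22 ± 0.11 SE, limma adjusted p = 0.184) was called without ImuBcl6 replicate 1 (-0.30, 0.00948). The Foxp1 call was lost without WT replicate 1 (0.0609) or 2 (0.0836), and the Spib call with all 28 libraries in 1 limma fit (0.0751).

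The difference between the D370Y effects with and without ImuBcl6 was called for 0 of 10 factors by limma, edgeR and DESeq2, beside 0.663% of all genes (0.0896% higher, 0.573% lower). Sex ran in opposite directions in the 2 pairs, so it is part of this difference and cannot be told apart from genotype. All 5 sex transcripts were called in it, 4 higher and 1 lower. Among the factors the difference was largest for Mef2b, at -0.37 ± 0.21 SE, limma adjusted p = 0.488 (95% interval -0.81 to 0.07). For Foxp1 it was 0.35 ± 0.11 SE, limma adjusted p = 0.201 (0.11 to 0.58), where the effect was 0.37 ± 0.09 SE with and 0.03 ± 0.06 SE without ImuBcl6. For Foxo1 it was -0.27 ± 0.10 SE, limma adjusted p = 0.273. The KO effect minus the D370Y effect was also called for 0 of 10 factors by these 3 tools, beside 0.145% of all genes (0.0272% higher, 0.118% lower). This contrast includes D370Y against WT, where genotype and sex cannot be told apart. Among the factors it was largest for Foxp1, at 0.30 ± 0.11 SE, limma adjusted p = 0.452 (0.07 to 0.52). The median of all genes in that contrast was -0.05 with limma and 0.06 with DESeq2, and relative to it Foxp1 stood at 0.34 and 0.36. At an unadjusted p below 0.05 limma had 2 factors in the difference between backgrounds, Foxp1 and Foxo1, and 1 in the difference between KO and D370Y, Foxp1.

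Most of the factors were lower in ImuBcl6 than in WT cells. Compared with WT, ImuBcl6 cells had 7 of 10 factors lower and 1 higher, beside 53.3% of all genes called (24.7% higher, 28.6% lower), so that a call was common. This comparison shares the WT libraries with D370Y against WT and the ImuBcl6 libraries with ImuBcl6 D370Y against ImuBcl6. Sex separated the groups, and so did sequencing depth. There were 31809630 to 36523514 reads in ImuBcl6 and 19022495 to 19429031 in WT libraries. Neither sex nor depth can be told apart from genotype here. Bcl6 had 547, 546, 589.7, 544 and 522 CPM in ImuBcl6 and 358, 366 and 364 CPM in WT libraries, and so was higher where the allele adds a source of Bcl6. Marker lists moved with this comparison too. The 3 B cell markers summed to 3305 to 3756 CPM in ImuBcl6 and 4416 to 5073 CPM in WT libraries, with 1 called lower (Ms4a1) and 1 higher (Cd79a). The 3 naive B cell markers summed to 165 to 206 CPM in ImuBcl6 and 269 to 293 CPM in WT libraries, with 2 lower, Fcer2a and Cd38. Of 5 germinal center markers 3 were lower (Mybl1, Gcet2 and Fas) and Bcl6 was higher, and their part in the factors' levels was not tested.

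Foxp1 had 177, 139, 165, 138 and 129 CPM in ImuBcl6 libraries, against 209, 199.8 and 221 CPM in WT libraries (-0.50 ± 0.10 SE, limma adjusted p = 0.00162). Pax5 had 113, 126, 113, 108 and 94.9 CPM in ImuBcl6 libraries, against 152, 159.9 and 152 CPM in WT libraries (-0.48 ± 0.08 SE, limma adjusted p = 0.000594). Both sets were separate, with every ImuBcl6 library lower. Mef2c (-0.46 ± 0.12 SE, limma adjusted p = 0.00929) and Ebf1 (-0.39 ± 0.10 SE, limma adjusted p = 0.00723) fell without overlap too, and these 4 calls held in all 15 alternatives. The mean Foxp1 level of ImuBcl6 D370Y cells, 193 CPM, thus lay between those of ImuBcl6 (149 CPM) and WT cells (210.1 CPM).

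The smaller shifts with ImuBcl6 were less stable. Pou2f2 (-0.28 ± 0.08 SE, limma adjusted p = 0.0122) lost its call without WT replicate 2 (-0.23, 0.0676). Foxo1 (-0.22 ± 0.07 SE, limma adjusted p = 0.0242) lost its call in 7 of 15 alternatives, among them without any 1 of the 3 WT libraries (0.0576 to 0.0867) and without ImuBcl6 replicate 2 (0.0568) or 4 (0.0572). Spib (-0.21 ± 0.07 SE, limma adjusted p = 0.033) lost its call in 9 of 15, among them without WT replicate 1 (0.0655), 2 (0.119) or 3 (0.0804) and without ImuBcl6 replicate 2 (0.0707) or 4 (0.0713). Irf8, the factor that was higher (0.25 ± 0.10 SE, limma adjusted p = 0.0447), lost its call in 10 of 15, among them without WT replicate 1 (0.11), 2 (0.059) or 3 (0.16) and without ImuBcl6 replicate 2 (0.0828), 3 (0.0577), 4 (0.0877) or 5 (0.0666). Mef2b (0.05 ± 0.18 SE, limma adjusted p = 0.821) was called only without ImuBcl6 replicate 1 (0.21, 0.0326), and Pou2af1 was not called (-0.06 ± 0.06 SE, limma adjusted p = 0.402).

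Of 14 genes that PAX5 and EBF1 are known to activate, 1, 2 and 1 were called in D370Y, ImuBcl6 D370Y and KO. The shares of all genes called there were 3.55%, 8.18% and 1.39%. In ImuBcl6 against WT 10 of 14 were called, beside 53.3% of all genes, so the counts are not compared between comparisons. The list of 14 genes activated by PAX5 or EBF1 had a median log2 fold change of 0.07 in D370Y, 0.13 in ImuBcl6 D370Y and -0.01 in KO cells against their controls, beside all-gene medians of -0.02, -0.01 and -0.06. In D370Y 1 of 14 was called, Cd72, a coreceptor that dampens B cell receptor signals, which was higher (0.39 ± 0.09 SE, limma adjusted p = 0.0355). In ImuBcl6 D370Y 2 of 14 were higher and none lower: Bank1, a B cell scaffold protein (0.69 ± 0.11 SE, limma adjusted p = 0.00298), and Cd72 (0.45 ± 0.07 SE, limma adjusted p = 0.00289). In KO cells Bank1 was the 1 called (0.53 ± 0.10 SE, limma adjusted p = 0.00761). The averaged D370Y effect was called for 6 of 14, 4 higher and 2 lower, with a median of 0.05, beside 12.5% of all genes. In ImuBcl6 against WT, where Pax5 and Ebf1 fell, 8 of 14 were lower and 2 higher, with a median of -0.36 beside an all-gene median of -0.02 and 53.3% of all genes called. The largest falls there were those of Cr2, a complement receptor (-1.62, limma adjusted p = 2.17e-05), and Ms4a1, which encodes CD20 (-1.05, limma adjusted p = 3.7e-05).

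Of the genes that PAX5 represses, 9 passed the filter in D370Y and 2 of these were higher: Prdm1, the plasma cell regulator (1.07 ± 0.26 SE, limma adjusted p = 0.0466), and Csf1r, a myeloid growth factor receptor (0.93 ± 0.20 SE, limma adjusted p = 0.0231). None of 9 was called in ImuBcl6 D370Y, where Csf1r stood at 0.46 ± 0.15 SE, limma adjusted p = 0.0825, and none of 8 in KO, where Xbp1 stood at -0.32 ± 0.12 SE, limma adjusted p = 0.278. The list medians were 0.17, 0.05 and -0.03. Of all genes, 2.6%, 2.8% and 0.476% were called higher in D370Y, ImuBcl6 D370Y and KO. In the averaged D370Y effect 2 of 9 were higher, beside 6.23% of all genes. In ImuBcl6 against WT 4 of 9 were higher and 2 lower, at a median of -0.13. Of all genes there, 24.7% were called higher and 28.6% lower. Prdm1 and Xbp1 are also markers of the plasma cell list, of which 2 of 7 genes were higher in D370Y. That list summed to 2775, 3804, 3492, 1938 and 2061 CPM in D370Y libraries and to 2398 to 2679 CPM in WT libraries. The part of plasma cells in the Prdm1 level was not tested. Csf1r is also a marker of the myeloid list, which held 13 listed genes with none at 0 in every library of a group. Its summed level was 35.3 to 51.3 CPM in D370Y and 16.4 to 21.3 CPM in WT libraries, 32.6 to 57.1 CPM in ImuBcl6 D370Y and 19.3 to 24.1 CPM in ImuBcl6 libraries, and 66.6 to 167 CPM in KO and 84.9 to 123 CPM in Cre control libraries. The 66.6 CPM were those of KO replicate 3, and the other KO libraries held 72.6 to 167 CPM. Of the members of this list 5 of 8 tested rose in D370Y, 4 of 6 in ImuBcl6 D370Y and 0 of 9 in KO. Its part in the levels of Spib, Irf8 and Mef2c, which myeloid or dendritic cells also express, was not tested.

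Some known FOXO1 targets were higher in each of the 3 Tbl1xr1 comparisons, and some were lower in ImuBcl6 against WT. Of 11 targets tested, 4 were higher and none lower in D370Y: Ccr7, S1pr1, Klf2 and Sesn1. In ImuBcl6 D370Y, where Foxo1 fell, 3 were higher (S1pr1, Ccr7 and Cdkn1b) and 1 was lower, the dark zone chemokine receptor gene Cxcr4 (-0.40, limma adjusted p = 0.0182). In KO cells 2 were higher, Klf2 and S1pr1. S1pr1, the receptor for egress into blood and lymph, averaged 67.7 ± 4.99 CPM in D370Y and 36.5 ± 2.33 CPM in WT cells (0.87 ± 0.08 SE, limma adjusted p = 5.31e-05), 40.2 ± 5.39 CPM in ImuBcl6 D370Y and 24.7 ± 3.02 CPM in ImuBcl6 cells (0.68 ± 0.10 SE, limma adjusted p = 0.0024), and 32.5 ± 2.95 CPM in KO and 20.4 ± 2.85 CPM in Cre control cells (0.65 ± 0.11 SE, limma adjusted p = 0.00302). The list medians were 0.22, 0.16 and 0.12, beside all-gene medians of -0.02, -0.01 and -0.06 and all-gene shares called higher of 2.6%, 2.8% and 0.476%. The averaged D370Y effect had 6 higher and 1 lower (median 0.28), beside 6.23% of all genes called higher and 6.28% lower. In ImuBcl6 against WT, where Foxo1 also fell, 6 of 11 were lower and 0 higher, at a median of -0.34 beside 28.6% of all genes called lower. Ccr7 also belongs to the naive B cell list, whose 3 listed genes, none at 0, summed to 286 to 449 CPM in D370Y and 269 to 293 CPM in WT libraries. The naive sum was 223 to 287 CPM in ImuBcl6 D370Y and 165 to 206 CPM in ImuBcl6 libraries, and 234 to 327 CPM in KO and 211 to 257 CPM in Cre control libraries. The 234 CPM were those of KO replicate 3, and the other KO libraries, at 288 to 327 CPM, lay above all Cre controls. Of these 3 genes 2 rose in D370Y, 2 in ImuBcl6 D370Y and 0 in KO, and the part of naive B cells in the levels of Foxp1, which they express strongly, was not tested.

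Of 21 other B cell factors tested, 2 were higher in D370Y, Zeb2 and Klf2, and the same 2 were higher in KO. In ImuBcl6 D370Y 1 was higher, Zeb2, and 1 lower, Bcl6. The shares of all genes called were 3.55% in D370Y, 8.18% in ImuBcl6 D370Y and 1.39% in KO. Zeb2, a zinc-finger factor of antigen-experienced B cells and myeloid cells, averaged 29.5 ± 3.75 CPM in D370Y and 14.3 ± 1.52 CPM in WT cells (0.99 ± 0.10 SE, limma adjusted p = 0.00026). It averaged 26.9 ± 5.43 CPM in ImuBcl6 D370Y and 11.4 ± 3.05 CPM in ImuBcl6 cells (1.18 ± 0.16 SE, limma adjusted p = 0.00159), and 12.6 ± 2.12 CPM in KO and 5.17 ± 0.713 CPM in Cre control cells (1.14 ± 0.12 SE, limma adjusted p = 8.42e-05). The median log2 fold changes of the list were 0.00, -0.11 and -0.05. In ImuBcl6 against WT 14 of 21 were called, 6 higher and 8 lower, at a median of -0.21, beside 53.3% of all genes. The averaged D370Y effect had 3 higher and none lower, beside 12.5% of all genes called. Bcl6 in ImuBcl6 D370Y was at -0.24 ± 0.06 SE, limma adjusted p = 0.0344. Among family relatives of the factors, 1 of 11 was called in D370Y, Irf4, which was higher (0.52 ± 0.09 SE, limma adjusted p = 0.00779). Irf4 is the Irf8 relative needed for plasma cells and also a marker of the plasma cell list. In ImuBcl6 D370Y 1 of 10 was called, Mef2d, which was lower (-0.29 ± 0.07 SE, limma adjusted p = 0.0182), and in KO none of 11 was called, with Irf2 at -0.32 ± 0.10 SE, limma adjusted p = 0.204.

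**Figure D3:**
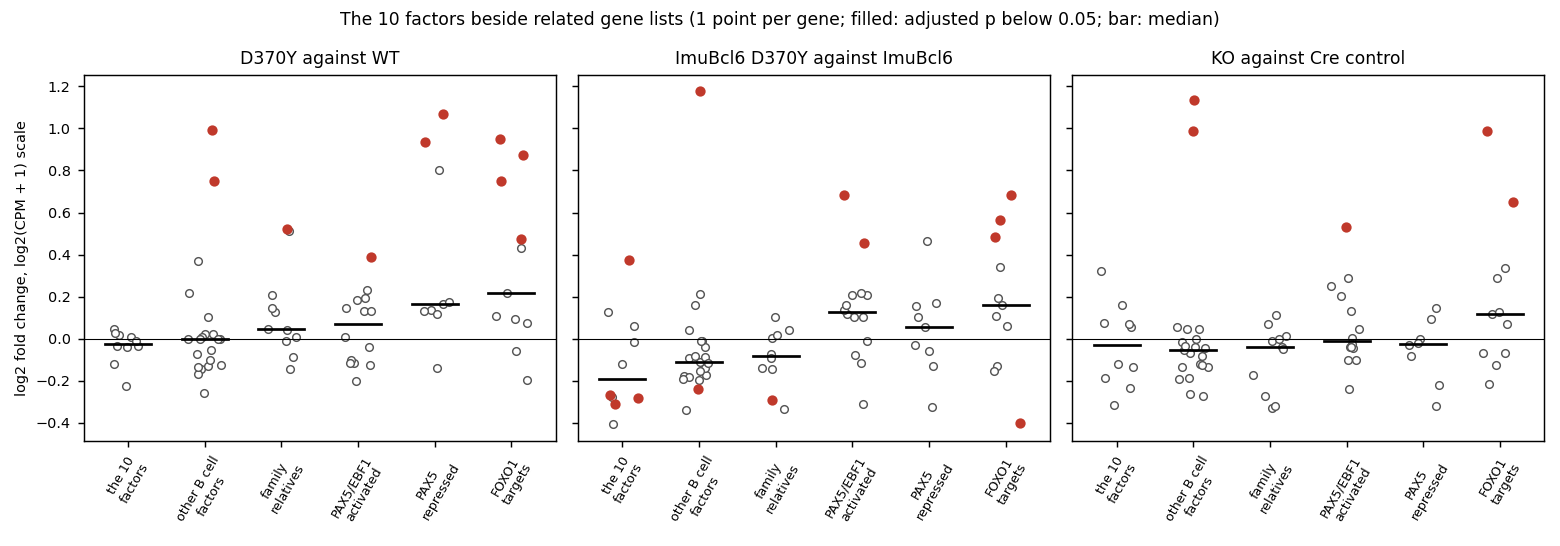
Log2 fold change per gene (vertical axis, log2(CPM + 1) scale) for the 10 factors and 5 related lists in the 3 allele comparisons; each point is a gene, filled points have an adjusted p below 0.05 and bars are medians. The 10 factors lie between -0.41 and 0.37, while Zeb2 lies at 0.99, 1.18 and 1.14.

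The summed level of germinal center markers was lower in every D370Y and KO library than in any of its controls. The 5 markers summed to 1432 to 1659 CPM in D370Y and 1698 to 1795 CPM in WT libraries, 1177 to 1422 CPM in ImuBcl6 D370Y and 1629.6 to 1765 CPM in ImuBcl6 libraries, and 1021 to 1235 CPM in KO and 1258 to 1392 CPM in Cre control libraries, with none at 0. The 1021 CPM were those of KO replicate 3, and the other KO libraries held 1082 to 1235 CPM. Of these markers 1 of 5 fell in D370Y, 2 in ImuBcl6 D370Y and 1 in KO, and Gcet2 was among them each time. The shares of all genes called lower were 0.943%, 5.38% and 0.913%. Bcl6, also in the sum, averaged 363 CPM in D370Y and 363 CPM in WT cells, and 361 CPM in KO and 350 CPM in Cre control cells. It was called lower only in ImuBcl6 D370Y, so the lower sums were not a fall of every marker. The part of the lower marker sums in the fall of Pou2af1, Spib and Foxo1 was not tested. The 3 B cell markers held 0 calls in each of these 3 comparisons.

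Within groups, some factors varied together from library to library and others in opposite directions. Deviations from the group means were correlated over the 28 libraries, as a description and without a test, since libraries share depth and composition effects. Spib and Pou2af1 had the highest Pearson r of the 45 pairs, 0.79, followed by Spib with Irf8 (0.74) and Pou2af1 with Irf8 (0.73). These 3 values rest in part on KO replicate 3: over the other 27 libraries they were 0.62, 0.45 and 0.48, and Pax5 with Pou2f2 was highest (0.71, and 0.70 over all 28). Ebf1 with Irf8 had the lowest, -0.76, and Mef2c with Irf8 had -0.61. Without KO replicate 3 these were -0.63 and -0.65, while Ebf1 with Pou2af1 was -0.23 instead of -0.51. The median over pairs was 0.25, with 12 pairs over 0.5 and 3 under -0.5. Without that library the median was 0.35, with 10 and 2 such pairs. Foxp1 was most like Foxo1 among the factors (0.54), although the 2 moved in opposite directions in ImuBcl6 D370Y.

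**Figure D4:**
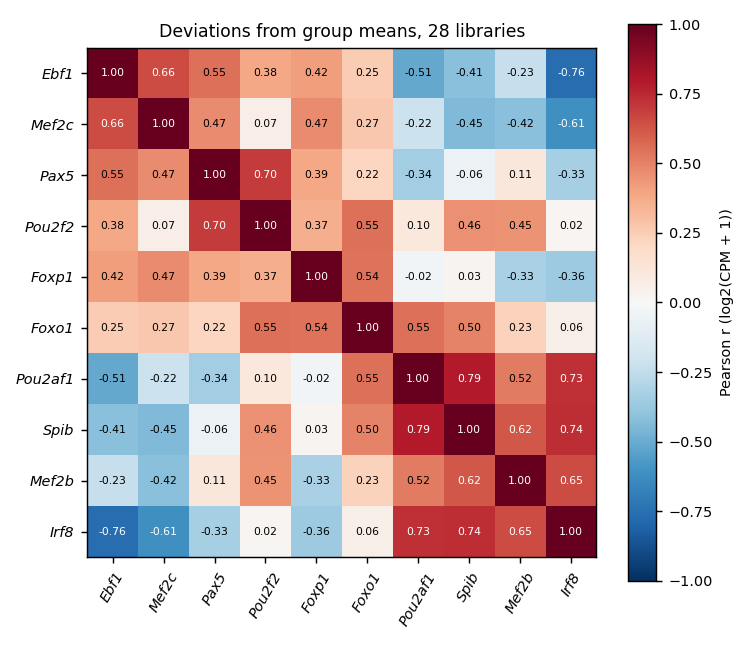
Pearson r of within-group deviations of log2(CPM + 1) between the 10 factors over 28 libraries (colour scale from -1 to 1, value in each cell). Pou2af1, Spib, Mef2b and Irf8 form 1 positive block (0.52 to 0.79), and Ebf1, Mef2c and Pax5 another (0.47 to 0.66), with Ebf1 and Irf8 at -0.76. Without KO replicate 3, which is included here, these values were 0.44 to 0.67, 0.44 to 0.63 and -0.63.

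Over all 9059 other genes with a mean of at least 5 CPM, the 2 most like each factor by the same measure were Tmbim6 (r = 0.95) and Lman2 for Irf8, Celf2 (0.94) and Cul4b for Mef2c, A630007B06Rik (0.94) and Arid4a for Ebf1, Nr1h2 (0.94) and Junb for Mef2b, and Usp10 (0.93) and Dpf2 for Spib. For the other factors they were Chaf1a (0.91) and Mapre2 for Pou2af1, Brpf3 (0.90) and Cic for Pou2f2, Eif4g3 (0.90) and Cep250 for Pax5, Phlpp1 (0.86) and Dyrk1a for Foxo1, and Cblb (0.80) and Hipk1 for Foxp1. Foxp1 had the least close partners. Without KO replicate 3, 14 of these 20 genes were still among the 2 most like their factor and all 20 among the first 10, with Tmbim6 at 0.89 for Irf8 and Usp10 at 0.86 for Spib. Annotated exons of Pax5 overlap Gm12462 and 5730488B01Rik on the opposite strand, those of Foxo1 overlap Gm20402 on the opposite strand, and those of Mef2b (Borcs8), Pou2f2 (Mir6537) and Foxp1 (Gm20696 and Gm49348) overlap genes on their own strand. Reads in these stretches may have been shared, since it is not stated whether counting used strand.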

How the data were processed

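Germinal center B cell RNA was measured in 28 libraries of 6 groups. Per the labels' protocols Trizol and RNeasy columns were used for extraction, and per the submitters' processing notes reads were aligned with STAR to mm10. Counting tool, strand setting and annotation were not stated in these sources. The authors deposited CPM per gene symbol for each library, at 19022495 to 37700121 reads on listed genes. CPM were whole multiples of 1 read, within 0.01 of a read for 100% of values, so reads could be recovered. No 2 libraries held identical values.

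Log2(CPM + 1) was fitted with limma 3.58.1 (R 4.3.3; trend and robust moderation) on genes with at least 1 CPM in as many libraries as the smallest group, all 10 factors included. Two-sided p-values were adjusted by Benjamini-Hochberg over all genes tested, and below 0.05 a gene counts as called. A fold change is that of log2(CPM + 1). Each allele was fitted with its own control; averaged effects and differences of effects were contrasts in fits of 4 groups. edgeR 4.0.16 (quasi-likelihood, TMM) and DESeq2 1.42.0 on the recovered reads were alternatives: they called 358 and 659 genes in D370Y against WT, 793 and 1378 on the ImuBcl6 background and 238 and 455 in KO. Fits were also run on simulated reads with the same spread setting for every gene. These libraries differ from that setting, so the run is not used as support. Coordinates are from GENCODE M21, and promoters from RefSeq. All 10 factors matched both.

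The factors, the gene lists and the tests were chosen with earlier results of these data known. Named genes were the 10 factors in every comparison, Tbl1xr1, Bcl6, up to 4 called genes per list with the largest change (or up to 2 with the smallest p), and 2 genes most like each factor. List counts, sums and medians leave out 3 genes that are not reported here, and medians cover genes that passed the filter. Spi1 was found as Sfpi1, and 1 naive B cell marker was not used here. Sex was read from Xist (above or below 50 CPM) and 4 Y-linked genes. Marker lists of plasma, dendritic, T, erythroid and stromal cells were also summed per library.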

Additional observations from a re-analysis of the deposited data

Results flagged for a closer look

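Of 50 sets of 5 libraries (10 factors in 5 groups), 5 held a library far from the other 4 by Dixon's ratio (above 0.710); chance gives about 1 in 20 sets. Irf8 was at 599 CPM in KO replicate 3, with the next library at 892 CPM. Foxo1 was at 139.6 CPM in ImuBcl6 D370Y replicate 3, with the next at 164 CPM, and this library bears on the Foxo1 call. Pou2f2 was at 239 CPM in D370Y replicate 4 (next 184 CPM) and at 186 CPM in ImuBcl6 replicate 3 (next 155 CPM). Mef2c was at 193 CPM in Cre control replicate 2 (next 170.4 CPM). WT, with 3 libraries, was not examined in this way.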

How the results depend on the processing

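Under other settings the numbers of genes called that differed by more than 1.5 times from the reported ones were as follows. In D370Y against WT the number called among all genes was 219 without the low-value filter, 659 with DESeq2, 249 with all 28 libraries in 1 fit, 764 with the replicate block instead of 376. In ImuBcl6 D370Y against ImuBcl6 the number called among the factors was 2 without the low-value filter instead of 4. In ImuBcl6 D370Y against ImuBcl6 the number called among all genes was 1378 with DESeq2 instead of 882. In KO against Cre control the number called among the factors was 1 with TMM scaling, 1 with edgeR, 1 with DESeq2, 1 with all 28 libraries in 1 fit, 1 with TMM scaling and KO replicate 3 left out instead of 0. In KO against Cre control the number called among all genes was 86 without the low-value filter, 238 with edgeR, 455 with DESeq2, 279 with all 28 libraries in 1 fit, 513 with TMM scaling and KO replicate 3 left out instead of 146. In the difference between backgrounds the number called among all genes was 49 without the low-value filter, 184 with DESeq2 instead of 74. In KO minus D370Y the number called among all genes was 9 with TMM scaling, 5 with edgeR, 43 with DESeq2, 27 with TMM scaling and KO replicate 3 left out instead of 16. Leaving out 1 library at a time gave 0 to 0 factors and 124 to 473 genes in D370Y against WT, 2 to 5 factors and 434 to 1016 genes in ImuBcl6 D370Y against ImuBcl6, 0 to 1 factors and 87 to 449 genes in KO against Cre control, 4 to 9 factors and 4525 to 6417 genes in ImuBcl6 against WT. The same gave 2 to 4 factors and 896 to 1482 genes in the averaged D370Y effect, 0 to 0 factors and 31 to 110 genes in the difference between backgrounds, 0 to 0 factors and 7 to 63 genes in KO minus D370Y. Single libraries that moved the gene count by over 1.5 times gave 149 without WT replicate 1, 148 without WT replicate 2, 124 without WT replicate 3 in D370Y against WT; 546 without ImuBcl6 D370Y replicate 2, 501 without ImuBcl6 D370Y replicate 3, 434 without ImuBcl6 replicate 3 in ImuBcl6 D370Y against ImuBcl6; 449 without KO replicate 3, 87 without Cre control replicate 2, 90 without Cre control replicate 3 in KO against Cre control; 896 without WT replicate 2, 928 without WT replicate 3 in the averaged D370Y effect. Over the 10 factors and 7 comparisons, 1291 of 1420 alternative values kept direction and side of the threshold, 40 lost a call, 16 gained one and 73 changed sign, all 73 without a call in either setting and with reported values of at most 0.12 in size. Sign changes were Pax5 in D370Y against WT (-0.0919 with the replicate block), Ebf1 in D370Y against WT (-0.00728 with TMM scaling, -0.052 with the replicate block), Mef2c in D370Y against WT (-0.0152 with TMM scaling, -0.0186 with the replicate block), Foxo1 in D370Y against WT (0.0026 with edgeR, 0.000116 with DESeq2), Ebf1 in KO against Cre control (-0.0375 with TMM scaling and KO replicate 3 left out). Others were Irf8 in KO against Cre control (0.00412 with TMM scaling and KO replicate 3 left out), Mef2b in ImuBcl6 against WT (-0.115 with the replicate block), Mef2c in the averaged D370Y effect (0.0243 with the replicate block), Irf8 in the averaged D370Y effect (-0.00562 with the replicate block), Mef2c in the difference between backgrounds (0.006 with TMM scaling). The rest were Pax5 in KO minus D370Y (-0.00302 with TMM scaling and KO replicate 3 left out), Ebf1 in KO minus D370Y (-0.0302 with TMM scaling and KO replicate 3 left out), Spib in KO minus D370Y (0.00207 with TMM scaling and KO replicate 3 left out), Irf8 in KO minus D370Y (0.00407 with edgeR, 0.0246 with DESeq2, 0.0608 with TMM scaling and KO replicate 3 left out). Leaving out single libraries changed the sign, with these ranges, for Pax5 (-0.0364 to 0.0903), Ebf1 (-0.0133 to 0.0723), Mef2b (-0.112 to 0.0247), Mef2c (-0.0287 to 0.0523), Pou2f2 (-0.129 to 0.00598), Irf8 (-0.0724 to 0.00841), Foxo1 (-0.0467 to 0.00481), Foxp1 (-0.00904 to 0.0637) in D370Y against WT; Mef2c (-0.0949 to 0.0566), Irf8 (-0.00607 to 0.118) in ImuBcl6 D370Y against ImuBcl6; Ebf1 (-0.0316 to 0.155), Irf8 (-0.164 to 0.00982) in KO against Cre control; Mef2b (-0.0243 to 0.212) in ImuBcl6 against WT; Mef2c (-0.0435 to 0.0323), Irf8 (-0.0198 to 0.0425) in the averaged D370Y effect; Mef2c (-0.103 to 0.0486), Pou2f2 (-0.128 to 0.00706) in the difference between backgrounds; Pax5 (-0.0388 to 0.0909), Ebf1 (-0.0472 to 0.139), Irf8 (-0.131 to 0.0433) in KO minus D370Y. Whether replicate numbers pair the libraries is not stated. Same-numbered libraries correlated at -0.324 to 0.569 over genes, which cannot settle it. In ImuBcl6 D370Y against ImuBcl6 the values were 0.569 for replicate 1 and 0.386 for replicate 4, but -0.324 for replicate 3. The replicate block is thus an alternative only. Under it Mef2b was called in ImuBcl6 D370Y against ImuBcl6 (-0.41, limma adjusted p = 0.0267), and Irf8 (0.0926) and Foxo1 (0.0857) lost their calls in ImuBcl6 against WT. The fit that left out KO replicate 3 under TMM scaling, and the correlations without that library, were chosen after seeing the data. Intervals cover the spread between libraries, WT has 3 libraries, and a p above the threshold does not show equal levels.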

Other observations

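Summed CPM of further marker lists per library, whose part in the factors' levels was not tested, were as follows. A few genes made up most of some sums: Lck (118 to 304 CPM) and Cd2 (121 to 284 CPM) among T cell markers, where Cd3e reached 0.479, Cd8a 0.192 and Cd4 1.26 CPM, Flt3 (32.7 to 62.8 CPM) among dendritic markers, and Pecam1 (42.7 to 112 CPM) among stromal markers, where Col1a1 and Col1a2 were at 0 in WT libraries. Plasma cell markers summed to 1938 to 3804 in D370Y and 2398 to 2679 in WT, 2055 to 3106 in ImuBcl6 D370Y and 2043 to 2243 in ImuBcl6, 1274 to 2184 in KO and 1838 to 2252 in Cre control libraries. The 1274 were those of KO replicate 3, and the other KO libraries held 1810 to 2184. Dendritic markers summed to 47.2 to 65.7 in D370Y and 55.7 to 61.5 in WT, 45.0 to 50.7 in ImuBcl6 D370Y and 42.0 to 55.6 in ImuBcl6, 35.2 to 60.1 in KO and 48.0 to 56.8 in Cre control libraries. T cell markers summed to 267 to 349 in D370Y and 264 to 286 in WT, 380.0 to 464 in ImuBcl6 D370Y and 344 to 453 in ImuBcl6, 276 to 486 in KO and 361 to 409 in Cre control libraries. KO replicate 3 gave the lowest KO sum of T cell markers, and the other KO libraries held 431 to 486. Erythroid markers summed to 2.46 to 5.07 in D370Y and 2.62 to 4.48 in WT, 2.88 to 9.93 in ImuBcl6 D370Y and 2.40 to 6.82 in ImuBcl6, 3.09 to 45.7 in KO and 2.79 to 9.56 in Cre control libraries. Stromal markers summed to 74.5 to 113 in D370Y and 71.2 to 72.2 in WT, 60.4 to 94.4 in ImuBcl6 D370Y and 45.6 to 60.6 in ImuBcl6, 52.6 to 77.0 in KO and 49.8 to 63.1 in Cre control libraries.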
